A study of Homo sapiens with 3 samples.

Results

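The 58 genes described here lie next to one another in part on the long arm of human chromosome 22, in bands 22q12 to q13, from HPS4 at base 26443109 to ARSA at base 50628152 (GRCh38.p14). They were chosen on measured values: neighbours among them gave lower signals together on an array of cells transfected with nm23-H1 than on an array of cells carrying the empty vector. The nm23-H1 minus vector values below are therefore a description of the choice and support nothing beyond it. Of the 58 genes, 57 had a probe set annotated to their symbol alone, with 113 such probe sets in all, and TFIP11 was not analysed here. Of these 57, 52 gave a signal above the floor on at least 1 array, among 7986 such genes of 11963 with a probe set of their own in the series. The other 5 (DEPDC5, APOL2, TAB1, TNRC6B and EP300) were at or below the floor on all 3 arrays by the probe set used.

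The 3 arrays measured RNA of CAL 27, an established line of tongue squamous carcinoma cells, grown in medium with fetal bovine serum and stably transfected with a plasmid. 1 array held cells with the empty pEGFPC1 vector, which overexpressed GFP. Another held cells with pEGFP-nm23-H1, which overexpressed a GFP-Nm23-H1 fusion, and the last held cells with pEGFPC1-nm23-H2, which overexpressed nm23-H2. With 1 array a group there was no replicate, no test and no p-value, and every difference compares these arrays and not the constructs. The design text speaks of clones, so each array may stand for 1 transfected clone, and construct, clone, culture and hybridisation cannot be told apart. The genes nm23-H1 and nm23-H2 (NME1 and NME2) encode nucleoside diphosphate kinases, and nm23-H1 is known as a metastasis suppressor gene.

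The long arm of chromosome 22 is short and rich in genes. The stretch from 22q12 to the end of the arm holds NF2, the tumour suppressor of neurofibromatosis, the DNA damage kinase CHEK2, the acetyltransferase EP300, and EWSR1, the RNA-binding protein gene rearranged in Ewing sarcoma. The 58 genes serve unrelated roles: transcription and RNA processing, translation, DNA repair and ubiquitin ligases, growth control, mitochondria, membrane traffic, secreted and lysosomal proteins, and the cytoskeleton.

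Each signal is the intensity of 1 probe set on a scale common to the 3 arrays, and each difference is in log2 units, so that -1 is a 2-fold lower signal. Signals under a floor of 28.3 units were set to that floor. Without replicates, the spread between 2 probe sets of a gene stood in for an error, with an SD of 0.33 for nm23-H1 minus vector, 0.35 for nm23-H2 minus vector and 0.38 for nm23-H1 minus nm23-H2. On the arrays 47.4% to 51.6% of probe sets were above the floor. The NME1 signal was 1519 on the vector array, 2379 on the nm23-H1 array and 1132 on the nm23-H2 array, and that of an NME2 probe set that also matches the NME1-NME2 read-through gene was 2272, 2323 and 4845 in the same order, so each was highest on the array named after it. Of 10 squamous epithelial markers 7 were measured, with a summed signal of 29603, 25501 and 40279 on the vector, nm23-H1 and nm23-H2 arrays, and KRT6A, KRT17 and TP63 had no probe set of their own. Of the markers of other cell types, 1 of 6 for fibroblasts, 2 of 5 for leukocytes and 1 of 3 for endothelium were above the floor, with summed signals of 78.1 to 101, 27.0 to 86.9 and 31.3 to 62.0. The leukocyte gene PTPRC and the endothelial genes VWF and CDH5 were at or below the floor on every array. In such bulk RNA, fewer cells of a type and less RNA per cell cannot be told apart.

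Promoters are shown for 5 genes because they frame the contrast within the set: the 3 with the lowest nm23-H1 minus vector difference and the 2 with the highest, among genes with signals above 66.2 units, 1 listed start and an upstream window outside every gene's span. Each is the 250 bases before the RefSeq start (GRCh38.p14), written 5′ to 3′ on the gene's strand. Capitals mark matches, on either strand, to the letters of 5 motifs: the TATA box (TATAAA), the CCAAT box (CCAAT itself), the GC box (GGGCGG), the E box (CACGTG) and the cAMP response element (TGACGTCA). The windows are SBF1 on the minus strand at chr22:50475036-50475285, ATXN10 on the plus strand at chr22:45671584-45671833, EIF3D on the minus strand at chr22:36529167-36529416, PMM1 on the minus strand at chr22:41589841-41590090 and RBX1 on the plus strand at chr22:40951128-40951377.
SBF1: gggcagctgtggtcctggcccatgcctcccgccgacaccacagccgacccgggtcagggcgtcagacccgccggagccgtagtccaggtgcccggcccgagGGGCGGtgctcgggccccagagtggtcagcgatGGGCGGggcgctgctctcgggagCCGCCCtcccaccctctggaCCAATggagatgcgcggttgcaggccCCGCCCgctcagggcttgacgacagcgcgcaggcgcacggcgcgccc
ATXN10: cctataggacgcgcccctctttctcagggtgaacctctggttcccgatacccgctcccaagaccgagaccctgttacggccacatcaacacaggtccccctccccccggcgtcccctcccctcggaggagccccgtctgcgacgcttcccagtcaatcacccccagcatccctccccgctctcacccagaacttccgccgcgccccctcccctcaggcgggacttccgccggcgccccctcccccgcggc
EIF3D: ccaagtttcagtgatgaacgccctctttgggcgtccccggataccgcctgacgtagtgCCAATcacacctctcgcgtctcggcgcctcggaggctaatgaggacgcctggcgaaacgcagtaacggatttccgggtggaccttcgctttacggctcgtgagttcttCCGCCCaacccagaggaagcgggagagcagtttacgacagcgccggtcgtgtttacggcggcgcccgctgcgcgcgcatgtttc
PMM1: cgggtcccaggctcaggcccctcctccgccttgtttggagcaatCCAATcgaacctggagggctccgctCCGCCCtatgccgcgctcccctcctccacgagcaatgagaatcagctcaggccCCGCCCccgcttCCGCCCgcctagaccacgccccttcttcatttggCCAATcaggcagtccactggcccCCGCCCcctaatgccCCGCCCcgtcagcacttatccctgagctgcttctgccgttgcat
RBX1: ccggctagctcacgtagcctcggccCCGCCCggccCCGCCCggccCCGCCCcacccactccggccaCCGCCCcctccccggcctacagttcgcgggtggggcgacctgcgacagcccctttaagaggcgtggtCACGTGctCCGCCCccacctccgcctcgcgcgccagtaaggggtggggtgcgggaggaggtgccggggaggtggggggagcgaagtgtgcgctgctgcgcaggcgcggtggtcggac
The GC box letters GGGCGG were matched 4 times at SBF1, 5 times at PMM1 and 5 times at RBX1, once at EIF3D and not at ATXN10. They were thus matched at genes that were lower and at genes that were higher on the nm23-H1 array.

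Most of the set was lower on the nm23-H1 array than on the vector array, but not all of it. Of the 52 measured genes 35 were below 0 (67.3%) and 17 above, where 47.7% of all 7986 genes were below 0. Their median was -0.23 with quartiles of -0.65 and 0.10 and a range of -2.21 to 0.99, and the median of all genes was 0. At a difference of 0.5 or more, 16 of 52 (30.8%) were lower, where 10.2% of all genes were, and 4 were higher, where 11.6% were. At 2-fold or more, 5 of 52 (9.62%) were lower and none was higher, and the same was so of 1.73% and 2.14% of all genes. Those 5 were SBF1, SMTN, PLXNB2, ATXN10 and EIF3D. Differences beyond 2 times the probe set error were found for 13 of 52 members on the lower side, where 5.81% of all genes were, and for TRIOBP and SCO2 on the higher side, where 6.67% were. The downward shift was thus a matter of part of the set, and its size depended on the scale. With the values as deposited 29 members were below 0, the median was -0.12 and 2 members were lower by 2-fold or more, and 1.17% of all genes were lower by that much and 2.63% higher. With a common median the same figures were -0.14, 2, 1.36% and 2.61%. Under every setting tried the members' median was lower than that of all genes, by 0.16 to 0.25.

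Genes of the interval that the list leaves out were also lower on the nm23-H1 array. The 114 other measured genes between HPS4 and ARSA had a median of -0.35 for nm23-H1 minus vector. Of them 73 (64.0%) were below 0, 50 (43.9%) lower by at least 0.5 and 16 lower by 2-fold or more. The same was so of 47.7%, 10.2% and 1.73% of all genes, and 2.14% were higher by 2-fold or more. Only 2 of the 114 were higher by 2-fold or more: SLC25A17, a peroxisomal carrier, by 1.17, and ADM2, whose vector signal was at the floor, by at least 1.23. The 53 measured genes of chromosome 22 that lie before the interval had a median of 0.04. Of these, 5 (9.43%) were lower by at least 0.5 and 11 higher, where 10.2% and 11.6% of all genes were. All measured genes of chromosome 22 outside the interval lie before it. Over the whole chromosome 32.4% of 219 genes were lower by at least 0.5, the highest share of 23 chromosomes. Chromosome 14 followed with 29.6% and had the lower median, -0.28 against -0.18. The 219 genes include the measured members, and the region was chosen on this comparison, so this rank describes the choice and supports nothing beyond it. Within the interval, the lower signals extended to genes outside the list of 58.

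**Figure D1:**
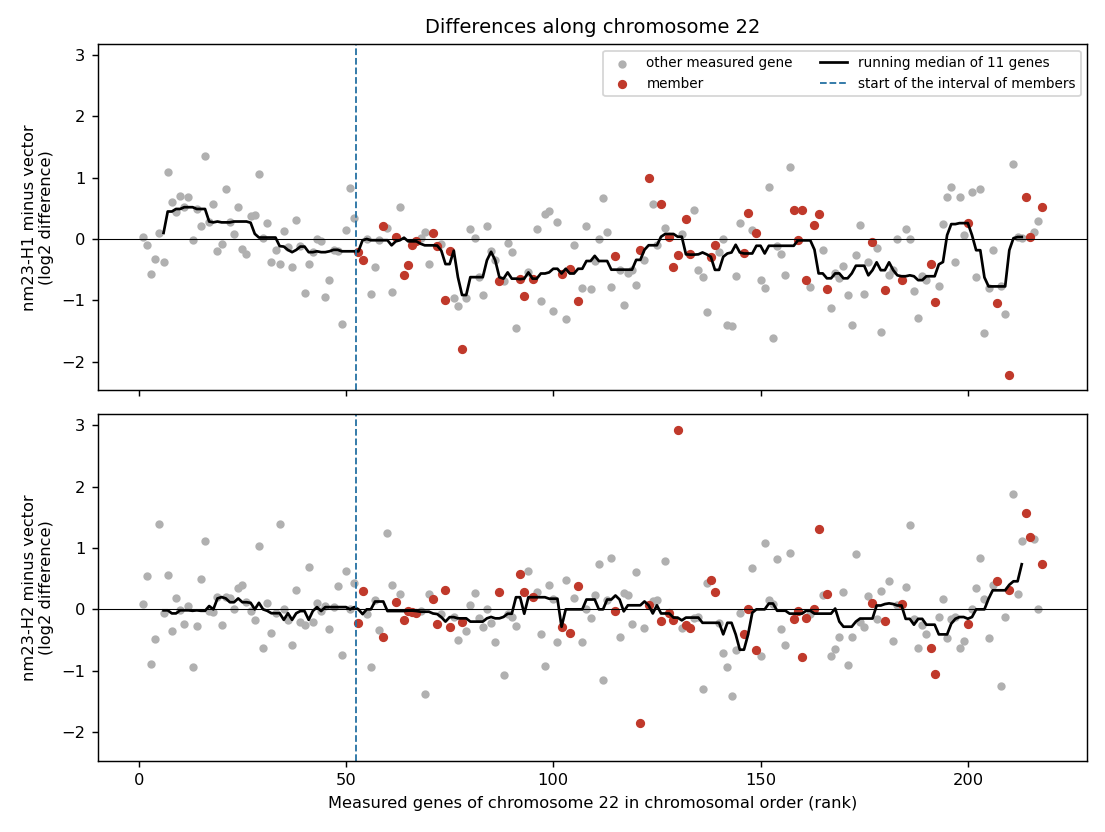
Differences in signal (log2, vertical axis) of the measured genes of chromosome 22, against their rank in chromosomal order, for nm23-H1 minus vector (top) and nm23-H2 minus vector (bottom). Red points are the 52 members, grey points the other genes, the line is a running median of 11 genes and the dashed line the start of the interval. In the nm23-H1 comparison the members spread from -2.21 to 0.99 around a median of -0.23, and in the nm23-H2 comparison around -0.03.

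The lower signals came in separate stretches. The nm23-H1 minus vector median was taken in consecutive stretches of 10 measured genes. Before the interval, from IL17RA to IGLL3P, it was 0.07, 0.38, 0.33, -0.15 and -0.21 in chromosomal order. At the start of the interval it was near 0, -0.01 from CRYBB2P1 to XBP1 and -0.07 from RHBDD3 to ASCC2. It was -0.58 from MTMR3 to PIK3IP1, -0.28 from PATZ1 to RFPL3, -0.65 from RTCB to RBFOX2, -0.52 from APOL3 to MPST and -0.51 from KCTD17 to SH3BP1. A run of 4 stretches with medians closer to 0 followed, from LGALS1 to RBX1, at -0.03, -0.23, -0.11 and -0.07. Then came 3 stretches at -0.60 each, from RANGAP1 to FAM118A. The last stretches alternated: 0.15 from FBLN1 to BRD1, -0.79 from ZBED4 to SBF1 and 0.20 over the 8 genes from ADM2 to ARSA. In the 8 stretches whose nm23-H1 median was under -0.5, the nm23-H2 minus vector median ran from -0.17 (CYP2D6 to TSPO) to 0.24 (ZBED4 to SBF1), below 0 in 5 of them and above in 3. The lowest nm23-H2 median of the interval was -0.66, from NPTXR to MIEF1, where the nm23-H1 median was -0.11. At the end of the arm the nm23-H2 median was 1.13 over 8 genes.

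**Figure D2:**
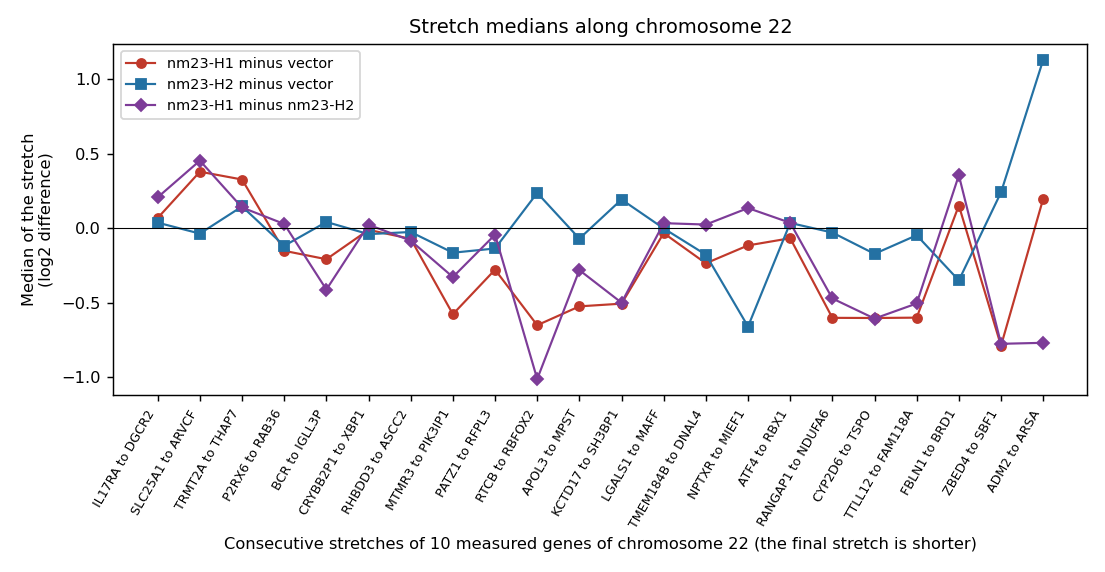
Median difference (log2) in consecutive stretches of 10 measured genes along chromosome 22 (the last holds 8), for nm23-H1 minus vector, nm23-H2 minus vector and nm23-H1 minus nm23-H2, with 1 point a stretch named by its first and last gene. The nm23-H1 minus vector medians are lowest in the stretch that ends with SBF1 (-0.79) and the nm23-H2 minus vector median is highest in the last stretch (1.13).

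At the first end of the interval stand HPS4 and SRRD, which start head to head. HPS4 is a subunit of a complex needed for lysosome-related organelles, and SRRD is a little studied gene with an SRR1-like domain. The start of SRRD on the plus strand, at base 26483877, lies 14 bases from one start of HPS4 on the minus strand and 94 bases from another. HPS4 gave 43.5 on the vector array, 37.4 on the nm23-H1 array and 37.1 on the nm23-H2 array, all within the probe set error. SRRD gave 109.6, 86.9 and 135 in the same order, lowest on the nm23-H1 array. Beyond HPS4 the next measured gene outside the interval, GRK3, gave 26.6, 35.9 and 38.3, that is 0.34 and 0.44 above vector when its vector signal is set to the floor. At the other end ARSA, the lysosomal sulfatase that degrades sulfatide, gave 40.0, 57.4 and 66.5 and was lowest on the vector array.

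Translation and ribosome biogenesis held 3 members, and they went apart. EIF3D, the cap-binding subunit of the initiation factor eIF3, gave 1505 on the vector array, 746 with nm23-H1 and 1955 with nm23-H2. The nm23-H1 array was the lowest, 2.02-fold under vector and 2.62-fold under nm23-H2. PES1, a nucleolar factor of large ribosomal subunit assembly, gave 249.8, 125 and 309.9, so that the nm23-H1 signal was just short of 2-fold under vector. EIF3L, another subunit of the same eIF3 complex, gave 1834, 2719 and 1606 and was highest on the nm23-H1 array, by 0.57 over vector. EIF3D spans bases 36510855 to 36529166 and EIF3L bases 37849419 to 37889407, so that subunits of 1 complex from the same region differed in opposite directions.

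DNA damage, ubiquitin and nuclear transport held 6 measured members. By the probe sets used, 3 were lower with nm23-H1 by at least 0.5 and none by 2-fold or more. The shares of all genes were 10.2% and 1.73%. XRCC6, a subunit of the Ku heterodimer that binds broken DNA ends, gave 2176, 1231 and 2579 on the vector, nm23-H1 and nm23-H2 arrays. The nm23-H1 signal was 1.77-fold under vector and 2.09-fold under nm23-H2. RANGAP1, the activator of the Ran GTPase in nuclear transport, gave 257, 161 and 232, a difference of -0.67. A second probe set of RANGAP1 gave 221, 51.1 and 257, a difference of -2.12. FBXO7, an F-box subunit of a ubiquitin ligase, gave 529, 338 and 792, lowest with nm23-H1 (-0.65) and highest with nm23-H2 (0.58). RBX1, the RING subunit shared by cullin ligases, went the other way, with 591, 818 and 345, 0.47 above vector on the nm23-H1 array and -0.78 on the nm23-H2 array. CHEK2, the checkpoint kinase, gave 82.7, 95.8 and 60.2, and SUN2, a protein of the inner nuclear membrane, gave 106, 99.7 and 129. For both, nm23-H1 differed from vector by less than the probe set error.

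In mitochondria 2 of 6 members were lower by at least 0.5 with nm23-H1 by the probe sets used, where 10.2% of all genes were. TSPO, the translocator protein of the outer membrane, gave 512, 289 and 448, a difference of -0.82. SAMM50, which inserts barrel proteins into the outer membrane, gave 467, 293 and 496, a difference of -0.67. TXN2, the mitochondrial thioredoxin, gave 224, 159.8 and 171 and was lower on both nm23 arrays, by -0.48 and -0.38. These 3 genes were lowest on the nm23-H1 array. A second probe set of TXN2 gave 226, 128 and 145, with differences from vector of -0.82 and -0.64. SCO2, a copper chaperone of cytochrome c oxidase, gave 108, 174 and 319 and was lowest on the vector array, 2.96-fold under nm23-H2. NIPSNAP1, a mitochondrial matrix protein, gave 376, 350.1 and 366, and the peptidase XPNPEP3 gave 28.8, 23.4 and 18.6, above the floor on the vector array alone.

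Growth control and signalling held 6 measured members, 5 below 0 with nm23-H1 and 2 lower by at least 0.5 by the probe sets used. The shares of all genes were 47.7% and 10.2%. PLXNB2, a plexin receptor for semaphorins, gave 489, 237 and 671, lowest with nm23-H1 by 2.06-fold against vector and 2.83-fold against nm23-H2. YWHAH, the eta isoform of a family of adaptors that bind phosphorylated serine, gave 239, 149 and 289, a difference of -0.68. GTPBP1, a GTP-binding protein, gave 187, 153 and 261, lowest on the nm23-H1 array as well. NF2, the gene of the membrane-cytoskeleton linker merlin, gave 148, 144 and 142, so that the tumour suppressor of the region was level on the 3 arrays by the probe set used, while another of its probe sets gave 0.63 for nm23-H1 minus vector. CYTH4, a GTPase exchange factor, gave 43.2, 35.7 and 42.2, a difference of -0.27 with nm23-H1. Its other probe set went the opposite way, with 28.4, 50.7 and 40.5 and a difference of 0.83. PDGFB, a platelet-derived growth factor chain, gave 37.8 on the nm23-H1 array and was under the floor on the others by the probe set used. Another of its probe sets gave 32.9, 37.5 and 26.2.

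Membrane traffic and phosphoinositides held 9 members. By the probe sets used, 6 of them were below 0 with nm23-H1 and 3 were lower by at least 0.5. The shares of all genes were 47.7% and 10.2%. SBF1, a myotubularin relative without phosphatase activity, gave 163, 35.3 and 203, the lowest nm23-H1 minus vector difference of the set (-2.21, or 4.63-fold). TOM1, an endosomal sorting adaptor, gave 80.4, 51.1 and 92.1, a difference of -0.65. AP1B1, a subunit of the clathrin adaptor AP-1, gave 173, 115 and 154, a difference of -0.59. All 3 were lowest on the nm23-H1 array. MTMR3, an active phosphoinositide phosphatase, gave 94.5, 102 and 106, and KDELR3, a receptor that returns proteins to the endoplasmic reticulum, gave 95.7, 121 and 79.9. PACSIN2, a membrane-bending protein, gave 190.3, 184 and 204. PICK1, a scaffold with a PDZ domain, gave 64.5, 46.9 and 57.0, and SYNGR1, a vesicle membrane protein, gave 45.2, 48.4 and 28.6. By the probe sets used, none of these last 5 was lower by 0.5 or more with nm23-H1. A second probe set of MTMR3 went the opposite way, at -0.51 for nm23-H1 minus vector and -0.79 for nm23-H2 minus vector. Its nm23-H2 signal was under the floor, so the latter difference is a bound, and the direction of MTMR3 is not settled.

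Among 8 measured genes of secreted, matrix and lysosomal proteins, 2 were lower by at least 0.5 with nm23-H1 by the probe sets used. The share of all genes was 10.2%. TIMP3, a metalloproteinase inhibitor bound to the matrix, gave 83.2, 43.5 and 101, a 1.91-fold lower signal than vector. APOL1, a serum apolipoprotein that lyses trypanosomes, gave 90.5, 61.3 and 74.4, a difference of -0.56. FBLN1, the matrix protein fibulin, gave 95.3, 71.6 and 61.4 by the probe set used, and its other probe sets went both ways. LGALS1, the lectin galectin, gave 721, 638 and 199.5 and so differed little with nm23-H1 (-0.18) and was 3.61-fold lower with nm23-H2. PMM1, a phosphomannomutase, gave 70.8, 93.8 and 176 and was highest with nm23-H2. TYMP, thymidine phosphorylase, gave 49.9, 51.1 and 113, level between vector and nm23-H1. TCN2, a cobalamin carrier, gave 34.8, 30.5 and 18.2, at the floor on the nm23-H2 array.

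Transcription, chromatin and RNA processing had 9 measured members of 12. By the probe sets used, none differed by 0.5 or more between nm23-H1 and vector. THOC5, a subunit of the THO complex of mRNA export, gave 244, 182 and 239, the lowest difference of the group at -0.42. DDX17, an RNA helicase, gave 585, 492 and 475, and SF3A1, a subunit of the splicing factor SF3A, gave 495, 460.0 and 421. EWSR1 gave 303, 309 and 331, and POLR2F, a small subunit shared by RNA polymerases, gave 284, 292 and 271. By the probe sets used, these last 4 genes differed between nm23-H1 and vector by less than the probe set error. A further probe set of DDX17, of the kind that can bind related transcripts, gave -0.76 for this difference. BRD1, a scaffold of histone acetyltransferase complexes, gave 65.3, 78.1 and 55.6, and TOB2, an antiproliferative protein, gave 42.5, 49.7 and 42.9. A second probe set of TOB2 went the opposite way, with 47.7, 9.95 and 46.4. Its nm23-H1 signal was at the floor, so its difference of -0.75 from vector is a bound, and the direction of TOB2 is not settled. CBX7, a Polycomb chromodomain protein, gave 39.8, 33.8 and 30.0. MAFF, a small Maf transcription factor, gave 45.4, 38.0 and 344 and was 7.58-fold higher with nm23-H2 than with vector.

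The remaining 5 members, of the cytoskeleton, chaperones and other roles, held the highest member of the set and the one next to the lowest. SMTN, the actin-associated smoothelin, gave 99.0, 28.6 and 86.2, so that its nm23-H1 signal was barely above the floor and 3.46-fold under vector. ATXN10, a gene whose repeat expansion causes a spinocerebellar ataxia, gave 1179, 580.3 and 569. It was lower on both nm23 arrays, 2.03-fold on the first and 2.07-fold on the second, where the other 4 members that were 2-fold lower with nm23-H1 differed from vector by -0.20 to 0.46 with nm23-H2. TRIOBP, an actin-bundling protein, gave 228, 453 and 239 and was the member highest above vector with nm23-H1 (0.99, or 1.98-fold). The probe set used for TRIOBP is of the kind that can bind related transcripts. ST13, a cochaperone of the heat shock protein machinery, gave 535, 739 and 482, also highest on the nm23-H1 array.

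**Figure D3:**
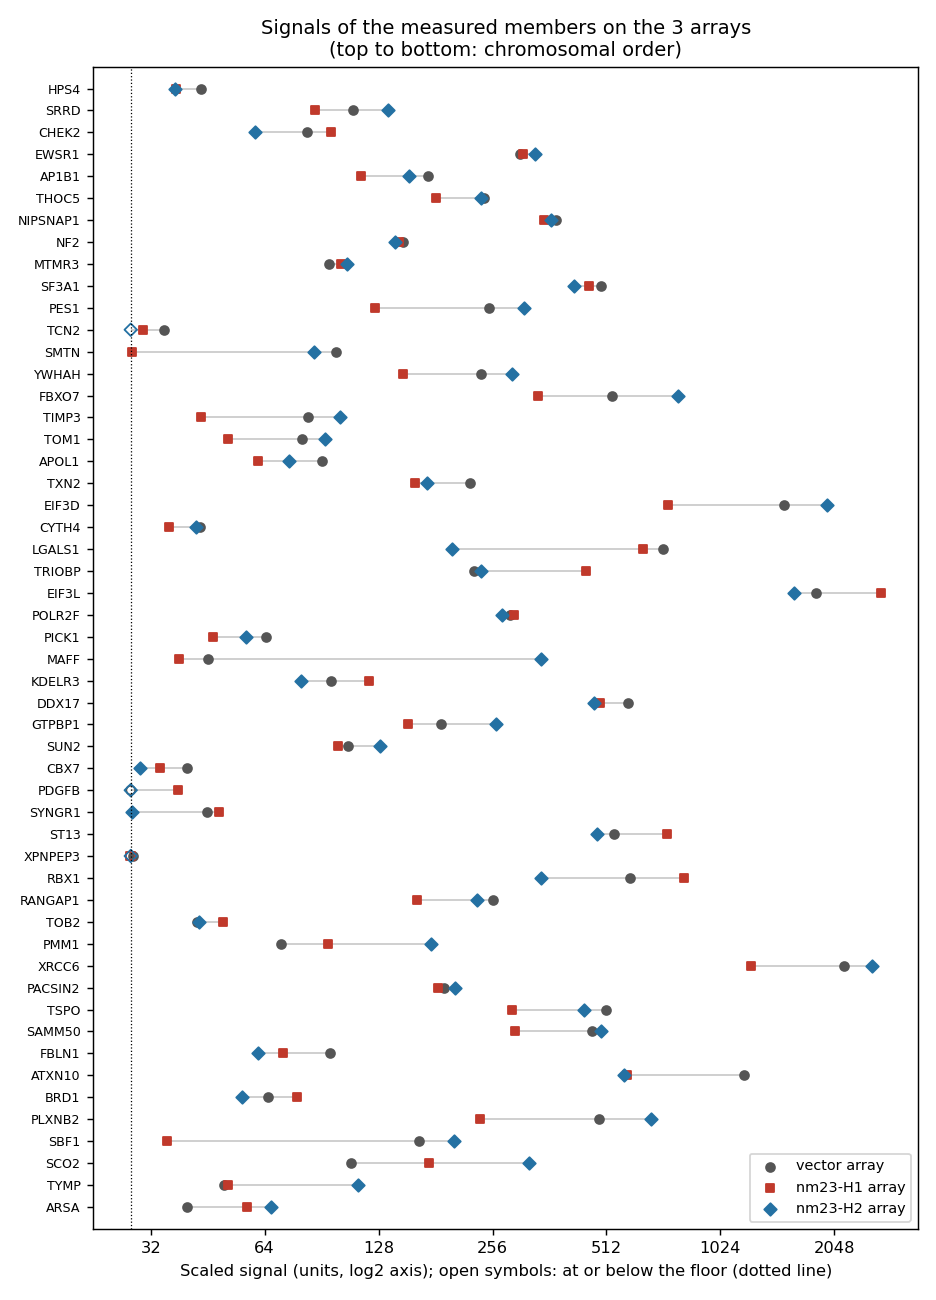
Signal (log scale) of each of the 52 measured members on the vector, nm23-H1 and nm23-H2 arrays, 1 point an array, in chromosomal order from the top; open symbols are at or below the floor (dotted line). The nm23-H1 point lies far under the other two at SMTN (28.6 units) and SBF1 (35.3), and the nm23-H2 point stands apart at MAFF (344) and LGALS1 (199.5).

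On the nm23-H2 array the set was close to all genes. The comparison of nm23-H2 with vector shares the vector array with the one used for the choice, so its values are given on their own. The median over the 52 members was -0.03, against -0.06 for all genes, with 28 below 0, where 54.4% of all genes were. At 0.5 or more, 5 members were lower and 6 higher, where 17.9% and 12.7% of all genes were. At 2-fold or more, LGALS1 and ATXN10 were lower, where 3.61% of all genes were, and MAFF, SCO2, PMM1 and TYMP were higher, where 3.59% were. As deposited the members' median was 0.28 where that of all genes was 0.17, and 1.35% of all genes were lower by 2-fold or more and 7.98% higher. With a common median it was 0.10, with 2.29% lower and 4.95% higher. MAFF differed by 2.92, SCO2 by 1.56, PMM1 by 1.31 and TYMP by 1.18. SCO2 and TYMP lie next to each other at the end of the arm, in the stretch whose nm23-H2 median was 1.13.

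Set against the nm23-H2 array, the nm23-H1 array was again the lower of the pair for most of the set. This comparison shares the nm23-H1 array with the one used for the choice. The median was -0.18 against 0.08 for all genes, and 31 of 52 were below 0, where 39.3% of all genes were. At 0.5 or more, 19 of 52 (36.5%) were lower, where 12.8% of all genes were, and 8 were higher, where 20.9% were. At 2-fold or more, 10 of 52 (19.2%) were lower, where 3.81% of all genes were, and LGALS1 and RBX1 were higher, where 3.76% were. The 10 were SBF1, MAFF, SMTN, PLXNB2, EIF3D, PES1, FBXO7, TIMP3, TYMP and XRCC6. In MAFF and TYMP the vector signal was close to that of nm23-H1, and the nm23-H2 signal was the one that stood apart. For the other 8 the nm23-H1 signal was also under vector, by 1.57-fold to 4.63-fold. As deposited, 6.28% of all genes were lower by 2-fold or more here and 2.15% higher.

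Where several probe sets measured 1 gene, they often differed in size and sometimes in direction. For nm23-H1 minus vector 24 members had more than 1 usable probe set: all were below 0 for 9 of them, all above 0 for 4, and of mixed sign or at 0 for 11. RANGAP1 was lower by both probe sets (-0.67 and -2.12), SAMM50 by both (-0.67 and -0.63), and ATXN10 by both (-1.02 and -0.40). SBF1 gave -2.21, -0.80 and -0.17, all below 0 but far apart, and its other probe sets were under the floor on every array. The 2 milder probe sets of SBF1 gave 82.0, 47.0 and 84.3, and 48.0, 42.8 and 56.8, again lowest with nm23-H1, and the second probe set of SMTN gave -0.33. On the higher side, TRIOBP gave 0.99 and 0.93, and ST13 gave 0.46, 0.41 and 0.69. Both probe sets of TRIOBP are of the kind that can bind related transcripts. FBLN1 was the member whose probe sets went opposite ways by 0.5 or more, with -0.41 and -0.95 against 0.50, 0.63 and 0.70. With nm23-H2 they spread from -0.63 to 1.65. The vector signals behind 0.50, 0.63, 0.70 and 1.65 were under the floor, so those differences are bounds. The direction of FBLN1 is therefore not settled by these arrays. TIMP3 was higher with nm23-H2 than with vector by each of its 4 usable probe sets, at 0.28, 1.01, 2.48 and 0.73. The vector signals behind 2.48 and 0.73 were under the floor, so those differences are bounds. For MAFF the second probe set gave 0.87 with nm23-H2 where the first gave 2.92. The 5 genes counted as not above the floor had low signals by the probe set used, as in EP300 with 26.9, 22.2 and 28.0 (a second probe set of EP300 gave 29.6, 19.3 and 15.8) and DEPDC5 with 4.10, 5.74 and 4.49. TAB1 gave at most 17.6, TNRC6B at most 27.2 and APOL2 at most 28.0. A further probe set of APOL2, of the kind that can bind related transcripts, gave 41.4, 6.87 and 56.3. APOL1 and APOL2 are close relatives, and SCO2 and TYMP overlap on the genome (bases 50523568 to 50526442 and 50525752 to 50530085), so for both pairs signal that crosses between the genes was not tested.

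Of the other genes in the interval, 16 were lower by 2-fold or more with nm23-H1, where 1.73% of all genes were. Values are given for those that bear on the members' stretches. ADSL, an enzyme of purine synthesis near ST13, gave 949.5, 311 and 1014 (-1.61). RTCB, the RNA ligase of tRNA splicing that opens a stretch with 3 members, gave 631, 232 and 521 (-1.45). MYH9, the nonmuscle myosin heavy chain, gave 459, 186 and 638 (-1.30). All 3 were lowest on the nm23-H1 array. The rest were TUG1, MCM5, RBFOX2, CARD10, JOSD1, CBX6, APOBEC3B, SNU13, TCF20, BIK, NUP50, TRABD and PPP6R2, at -1.01 for MCM5 to -1.53 for TRABD. APOBEC3B and TRABD were at the floor on the nm23-H1 array, so their differences of -1.41 and -1.53 are bounds.

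Genes that work with the members but lie on other chromosomes were read as a comparison. Of 107 partner genes, subunits of the same complexes or close paralogues, 78 were measured. Their nm23-H1 minus vector median was -0.08, with 9 lower by at least 0.5, where 10.2% of all genes were, and 4 higher, where 11.6% were. TIMP1, a metalloproteinase inhibitor like TIMP3, was the only one of the 78 lower by 2-fold or more, where 1.73% of all genes were. PDGFA was just short of 2-fold. The other eIF3 subunits had a median of -0.13 over 10 measured of 11, from -0.64 for EIF3A to 0.18 for EIF3F, where EIF3D was at -1.01 and EIF3L at 0.57. Beside XRCC6 at -0.82, its Ku partner XRCC5 was at -0.27 and the kinase PRKDC at -0.44. Beside PES1, close to 2-fold lower, WDR12 of the same complex was at -0.28. Beside SAMM50 at -0.67, the metaxins and TOMM40 had a median of -0.20 over 3 genes. Beside YWHAH at -0.68, its paralogues had a median of -0.26 over 5 measured of 6. Beside THOC5 at -0.42, the other THO subunits were split, with a median of 0.20 over 3 measured of 5. THOC2 was at -0.88, at the floor on both nm23 arrays, THOC6 at 0.34 and THOC7 at 0.20. The members were chosen for low values in this comparison and the partners were not, so these values are a description and do not compare members with partners.

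In other groups the member and the median of its partners were both close to 0. The other SF3A and SF3B subunits had a median of 0.07 over 7 genes beside SF3A1 at -0.11. The other RNA polymerase II subunits had a median of 0.02 over 11 genes beside POLR2F at 0.04. They ranged from -0.74 for POLR2B to 0.47 for POLR2K, with 2 lower by at least 0.5 and none higher by that much. The shares of all genes were 10.2% and 11.6%. The ubiquitin ligase group was split, with the cullins, RNF7 and SKP1 at a median of -0.08 over 6 measured of 8, beside RBX1 at 0.47 and FBXO7 at -0.65. For the tiny lists the values ran both ways: TOB1 was at -0.71, CREBBP at 0.49, TIMP2 at 0.72 and MAFG at 0.75. With nm23-H2 the 78 partners had a median of -0.11, against -0.06 for all genes. By at least 0.5, 16 were lower and 7 higher, where 17.9% and 12.7% of all genes were. By 2-fold or more, POLR2L was lower (-1.20) and GTPBP2 higher (1.59), where 3.61% and 3.59% of all genes were.

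**Figure D4:**
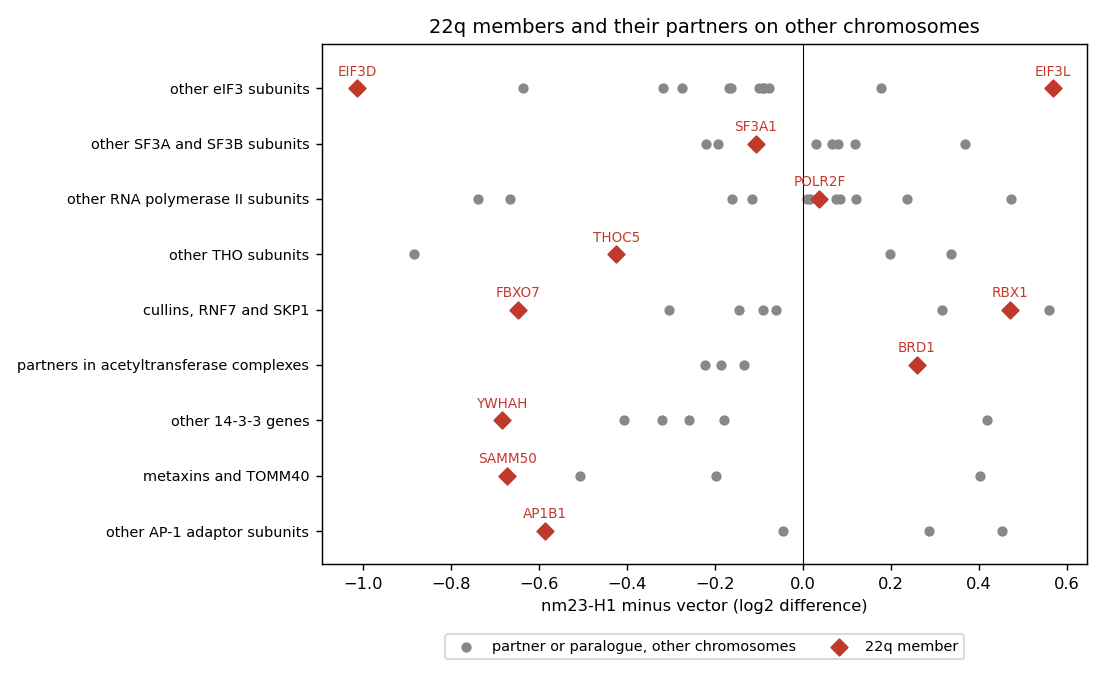
Nm23-H1 minus vector difference (log2) of members and of the genes that share their complex or family on other chromosomes, 1 row for each list with at least 3 measured genes, grey points for partners and red diamonds for members. In the eIF3 row EIF3D lies at -1.01 and EIF3L at 0.57, on either side of the partners, which range from -0.64 to 0.18. The members were chosen for low values on this axis and the partners were not.

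A window of 250 bases before to 50 after the start was given for 47 of the 58 members. Their median GC content was 66.3%, against 69.0% for the other genes of the interval, 72.3% for genes of chromosome 22 outside it and 64.7% for all measured genes with a window. The letters GGGCGG were matched in 34 of the 47 (72.3%), where 66.7% of all measured genes had them, and CCAAT in 18 (38.3% against 36.5%). TATAAA was matched in 2 (4.26% against 7.08%), the E box in 3 (6.38% against 9.82%) and the cAMP response element in 4 (8.51% against 3.26%). Among the 79 other genes of the interval with a window, the GC box letters were in 78.5%, CCAAT in 35.4%, TATAAA in 3.80%, the E box in 11.4% and the cAMP response element in 3.80%. With 47 windows, several of these shares rest on 2 to 4 genes, and no test of them was run. A match says that these letters are in the window and not that a factor binds there.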

How the data were processed

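Affymetrix arrays measured the RNA of 3 stably transfected CAL 27 cultures, 1 array a group. The values are signal intensities that the authors deposited, made with MAS5 per the submitters' processing notes. Its version and scaling target are not given in the sources used here. A probe set was named from the platform annotation: 19071 probe sets had 1 symbol and were used, 1043 had several and 2169 had none listed. Symbols were updated by gene identifier, and positions and promoter windows came from RefSeq (GRCh38.p14).

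From these values each array's mean between its 2nd and 98th percentile was brought to the geometric mean of the 3 arrays, multiplying the vector, nm23-H1 and nm23-H2 arrays by 1.11, 1.03 and 0.881. Signals under the pooled 50th percentile (28.3) were set to it, and log2 differences were taken. A gene was measured by 1 probe set, the brightest, with names ending in _x_at used last, and counted if above the floor on at least 1 array. Thresholds were 0.5 and 1 (log2). The partner, role and marker lists and the members were chosen with earlier results of these data known. Genes were named by rule: every member could be, with full values for bright members by lowest difference (signal above 66.2, up to 24), members at 0 or above, those 1 or more apart with nm23-H2, with probe sets opposed by 0.5, in head-to-head pairs or at either end. Other genes were named if in a list or at least 1 apart inside the interval. The low members outside this rule were named so that every member is accounted for. The code was tested on simulated data. The software was matplotlib 3.10.9, scipy 1.17.1, pandas 2.3.3, numpy 2.4.6 and Python 3.11.15. Scaling, floor, probe set choice, threshold and the arrays used were varied. 1 array a group limits the precision, and background and saturation could not be read from these values.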

Additional observations from a re-analysis of the deposited data

Results flagged for a closer look

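FBXO7, the F-box subunit of a ubiquitin ligase, stood on opposite sides of the vector array on the 2 nm23 arrays, at -0.65 (log2) with nm23-H1 and 0.58 with nm23-H2. Both differences use the same vector array, the difference between them was not tested, and each group holds 1 array.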

How the results depend on the processing

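No paired analysis was possible because each group holds 1 array. No member's difference of 2-fold or more changed its direction under any setting that was run. Of those of 0.5 or more, 1 did: FBLN1 for nm23-H2 minus vector, at -0.63. It was at 0.27 with probe sets averaged and at 1.65, a bound, by probe sets specific by name. The members' nm23-H2 minus vector median of -0.03 took either sign. The median of the members for nm23-H1 minus vector was -0.12 with values as deposited, -0.14 with a common median and -0.16 with probe sets averaged, and it stayed under the median of all genes by 0.16 to 0.25. The 5 members lower by 2-fold or more became 2 as deposited, 2 with a common median, 3 with 16 added in place of the floor, 3 with the mean of probe sets, 2 with probe sets specific by name and 16 at 0.5. By probe sets specific by name PLXNB2 was at the floor on both arrays, SMTN at -0.33 and ATXN10 at -0.40.

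For nm23-H2 minus vector the members' median was 0.28 as deposited, where all genes were at 0.17, and 0.10 with a common median. For nm23-H1 minus nm23-H2 it was -0.40 as deposited, -0.27 with quantile normalization and -0.37 with a floor at the 70th percentile, and the 10 lower members became 6 by probe sets specific by name and 19 at 0.5. For the other genes of the interval the median was -0.26 as deposited, -0.28 with a common median, -0.39 with quantiles, -0.29 with the mean of probe sets and -0.27 by specific probe sets, and their 16 lower genes became 10 with the 70th percentile floor, 9 with 16 added, 9 with the mean, 6 by specific probe sets and 50 at 0.5. Outside the interval the median was 0.11 as deposited and 0.12 with a common median, and the 3 higher genes became 7 with a floor at the 25th percentile, 1 at the 70th and 11 at 0.5. The median of all genes moved by over 0.1 with values as deposited, from -0.06 to 0.17 for nm23-H2 minus vector and from 0.08 to -0.07 for nm23-H1 minus nm23-H2. The cause of these shifts was not tested.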
